A study of Mus musculus with 4 samples.

Results

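Genes of oxidative phosphorylation encode the subunits of the respiratory chain complexes I to IV and of the ATP synthase (complex V), together with the factors that assemble complexes I and II. They were taken by symbol from the RefSeq genes of GRCm38.p6, the assembly behind mm10. Autosomal protein-coding genes entered when the symbol began with Nduf, Uqcr or Atp5, with Sdh followed by a, b, c or d, or with Cox followed by a digit from 4 to 8. The choice gave 97 genes of 20665, of which 37 belong to complex I, 4 to complex II, 8 to complex III, 19 to complex IV and 17 to complex V, and 12 are assembly factors. Ndufa4 and its relative Ndufa4l2 were counted with complex IV, where the NDUFA4 protein is known to sit. The X-linked Ndufa1, Ndufb11 and Cox7b fell outside the choice.

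Binding was measured by chromatin immunoprecipitation and sequencing in mouse embryoid bodies, aggregates in which embryonic stem cells differentiate into several lineages, at day 6. There was 1 library each for Trim33, CTCF, histone H3 acetylated at lysine 27 (H3K27ac) and input DNA, so no value has a replicate check and no test across samples could be made. All 4 libraries came from the same kind of cells, Trim33FF: UbcCreERT2 stem cells derived from blastocysts of an outbred B6:129Sv strain, at passages 8 to 12. The floxed Trim33 allele and the Cre were thus shared by every library, and the labels name no induction of the Cre. The stem cells were kept with MEK and GSK3 inhibitors (2i) and LIF and were differentiated with 20% serum. Chromatin came from 20 dishes of 10 cm, crosslinked with 1% formaldehyde over 15 min, and each immunoprecipitation took 30 µg.

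The respiratory chain passes electrons from NADH (complex I) and succinate (complex II) through complexes III and IV to oxygen, and the proton gradient that it builds drives ATP synthesis by complex V. Nearly all of its subunits are encoded in the nucleus, many with promoters rich in CpG and with sites for the activators NRF1 and GABPA, and some subunits have isoforms that are restricted to heart and skeletal muscle, lung or testis. H3K27ac marks active promoters and enhancers, CTCF binds insulators and loop anchors, and Trim33 is a reader of modified histone tails that works with Smad proteins downstream of Nodal and TGF-beta.

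The sequences below show the positions on which the CTCF and motif results turn. Each is the 100 bases just before the transcript start, read 5′ to 3′ on the gene's own strand, from RefSeq promoters of GRCm38.p6. The first set holds the 8 genes whose CTCF summit lay 47 to 67 bp before the start, in order of CTCF fold at the start. Capitals mark AGGGGGC, a part of the CTCF motif, where it was present.
Ndufab1 (chr7:122101849-122101948, minus strand): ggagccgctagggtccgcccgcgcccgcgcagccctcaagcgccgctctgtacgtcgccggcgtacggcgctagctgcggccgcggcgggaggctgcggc
Atp5k (chr5:108434400-108434499, minus strand): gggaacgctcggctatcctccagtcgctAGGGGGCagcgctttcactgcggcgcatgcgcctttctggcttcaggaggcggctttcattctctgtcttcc
Uqcrc1 (chr9:108936548-108936647, plus strand): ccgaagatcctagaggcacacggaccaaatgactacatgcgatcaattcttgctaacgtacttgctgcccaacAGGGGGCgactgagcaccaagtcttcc
Ndufb7 (chr8:83566658-83566757, plus strand): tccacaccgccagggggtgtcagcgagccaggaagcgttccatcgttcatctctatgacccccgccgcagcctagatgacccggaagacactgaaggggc
Ndufc1 (chr3:51408956-51409055, minus strand): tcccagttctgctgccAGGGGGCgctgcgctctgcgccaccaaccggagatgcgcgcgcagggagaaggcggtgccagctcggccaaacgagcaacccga
Ndufaf4 (chr4:24897983-24898082, plus strand): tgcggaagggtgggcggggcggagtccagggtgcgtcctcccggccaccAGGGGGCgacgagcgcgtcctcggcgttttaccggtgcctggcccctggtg
Ndufb10 (chr17:24724424-24724523, minus strand): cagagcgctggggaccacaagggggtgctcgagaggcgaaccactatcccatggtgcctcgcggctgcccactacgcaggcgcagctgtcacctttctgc
Cox5a (chr9:57521132-57521231, plus strand): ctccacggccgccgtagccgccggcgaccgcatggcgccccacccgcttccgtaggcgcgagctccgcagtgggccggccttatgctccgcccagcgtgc

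The next stretches are shown because GCGCATG, a part of the NRF1 site, occurred in them on both strands at overlapping positions, in capitals. The Atp5k stretch above also held this arrangement, in lower case there, beginning 50 bp before the start.
Atp5g2 (chr15:102671048-102671147, minus strand): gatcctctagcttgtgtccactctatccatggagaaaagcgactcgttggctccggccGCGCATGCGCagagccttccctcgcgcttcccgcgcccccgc
Ndufa11 (chr17:56717662-56717761, plus strand): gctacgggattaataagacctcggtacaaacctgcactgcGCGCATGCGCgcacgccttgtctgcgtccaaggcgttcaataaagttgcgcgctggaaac

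The last set holds the genes with the highest H3K27ac peaks at the start among those with CCGGAAG, the core of the GABPA site, in these 100 bases on either strand and with a single listed start, leaving out the genes of the first set. Capitals mark it.
Sdhd (chr9:50603850-50603949, minus strand): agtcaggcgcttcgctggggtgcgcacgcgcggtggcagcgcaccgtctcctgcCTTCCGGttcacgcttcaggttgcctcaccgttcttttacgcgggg
Ndufs3 (chr2:90904722-90904821, minus strand): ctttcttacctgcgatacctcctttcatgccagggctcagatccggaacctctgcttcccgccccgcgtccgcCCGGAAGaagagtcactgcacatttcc
Uqcr11 (chr10:80406822-80406921, minus strand): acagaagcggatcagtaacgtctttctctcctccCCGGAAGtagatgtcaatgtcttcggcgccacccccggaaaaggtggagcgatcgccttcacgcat

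H3K27ac was found at most of these genes. A peak was given to a gene when its summit, the point of highest signal, lay inside the gene or within 5 kb of it. With that rule 84 of the 97 genes, 86.6% (95% Wilson interval 78.4% to 92.0%, which covers counting error only), had an H3K27ac peak, against 52.0% of all autosomal protein-coding genes. For CTCF the count was 62 genes, 63.9% (54.0% to 72.8%), against 62.8%, so the share was near the background. For Trim33 it was 15 genes, 15.5% (9.6% to 24.0%), against 14.2%, also near the background. A summit inside the gene itself was found at 71 members for H3K27ac, 73.2% against 44.2%, and at 9 for Trim33, 9.28% against 8.85%. With a window of 1 kb H3K27ac was at 80 members, 82.5% against 48.6%, CTCF at 43, 44.3% against 53.1%, and Trim33 at 12, 12.4% against 11.6%. When each peak went to its nearest gene alone, 73 members kept H3K27ac, 75.3% against 46.1%, 51 kept CTCF, 52.6% against 56.6%, and 12 kept Trim33, 12.4% against 11.8%. Several H3K27ac peaks were found at 35 members with 2 or more, 36.1% against 31.4%, and several CTCF peaks at 38, 39.2% against 42.8%, while no member had more than 1 Trim33 peak, against 2.29%.

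Oxidative phosphorylation genes are short, with a median length of 7500 bp against 17500 bp for all genes, and a short gene offers less room for a summit. Among genes of up to 25700 bp, the 90th percentile of the members' length, H3K27ac was at 88.5% of 87 members against 44.9%, CTCF at 63.2% against 51.8%, and Trim33 at 16.1% against 11.4%.

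**Figure D1:**
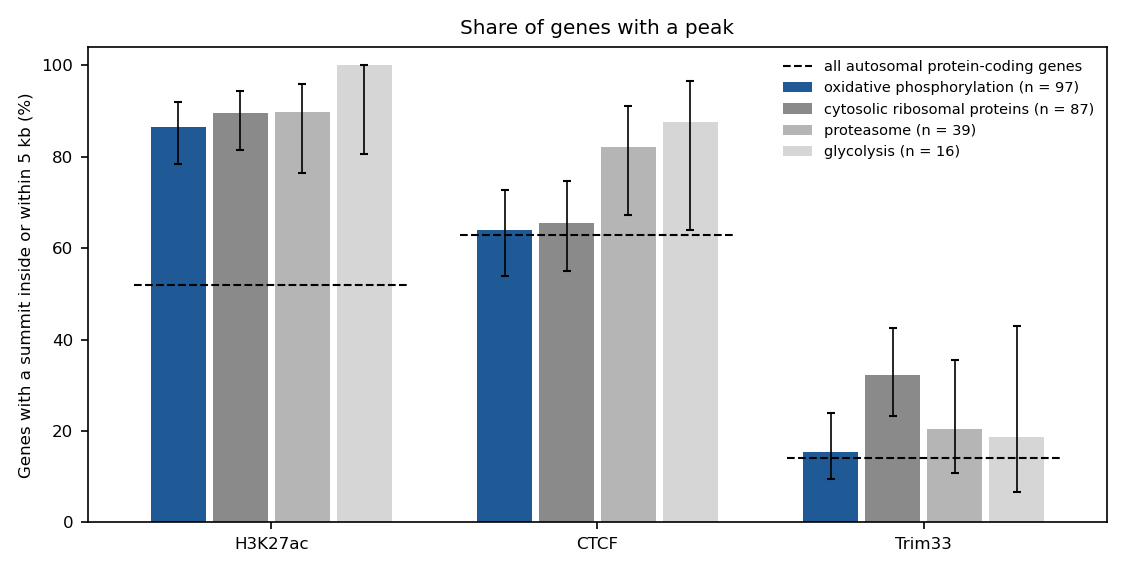
Share of genes (%) with a summit inside the gene or within 5 kb, for the oxidative phosphorylation genes and 3 other lists, in the 1 library of each antibody; bars on each column are 95% Wilson intervals and the dashed line is the share of all autosomal protein-coding genes. The oxidative phosphorylation genes stood above the line for H3K27ac (86.6% against 52.0%) and near it for CTCF and Trim33.

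The marks combined as follows. H3K27ac without CTCF or Trim33 was found at 25 members, 25.8% against 9.84% of all genes, and H3K27ac with CTCF but no Trim33 at 44 members, 45.4% against 30.7%. CTCF with Trim33 but no H3K27ac, and Trim33 alone, were found at no member, against 2.49% and 0.315%. All 3 peaks were found at 9 members, 9.28% against 9.77%, and H3K27ac with Trim33 but no CTCF at 6, 6.19% against 1.65%. CTCF alone was found at 9 members, 9.28% against 19.8%. No peak at all was found at 4 members, 4.12% against 25.4%: Cox8c, Ndufb4b, Ndufb4c and Ndufb5. Every one of the 15 members with Trim33 also had H3K27ac, as did 2360 of all 2940 genes with Trim33. Among acetylated genes alone, Trim33 was at 17.9% of 84 members against 22.0%, and CTCF at 63.1% against 77.9%.

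The height of a peak is given here as the authors' fold enrichment over background, which is that peak's own value and was compared only within its list. The highest H3K27ac peak of a member had a median fold of 12.0 (quartiles 8.42 and 16.7, range 4.15 to 29.3, 84 genes), beside 10.9 for all 10746 genes with a peak. Its median percentile in the H3K27ac list was 84.5 (95% order-statistic interval 77.0 to 89.5), beside 81.1 for all genes with a peak, which lay within that interval. The members next to the median were Atp5g3 with a fold of 12.0 and Atp5g2 with 11.9. A peak from the top 10% of the list was present at 30 members, 30.9% against 16.0%, and a CTCF peak of that rank at 17, 17.5% against 17.1%. The median fold of the highest CTCF peak was 18.2 (range 4.18 to 44.2, 62 genes), beside 17.5, and that of Trim33 was 5.0 (range 2.50 to 6.83, 15 genes), beside 5.67. The Trim33 peaks of the members had a median percentile of 27.7 beside 50.3, which lay within the wide interval of 7.22 to 57.2 that 15 genes give, and none was in its top 10%, where 1.4% of all genes had a peak.

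**Figure D2:**
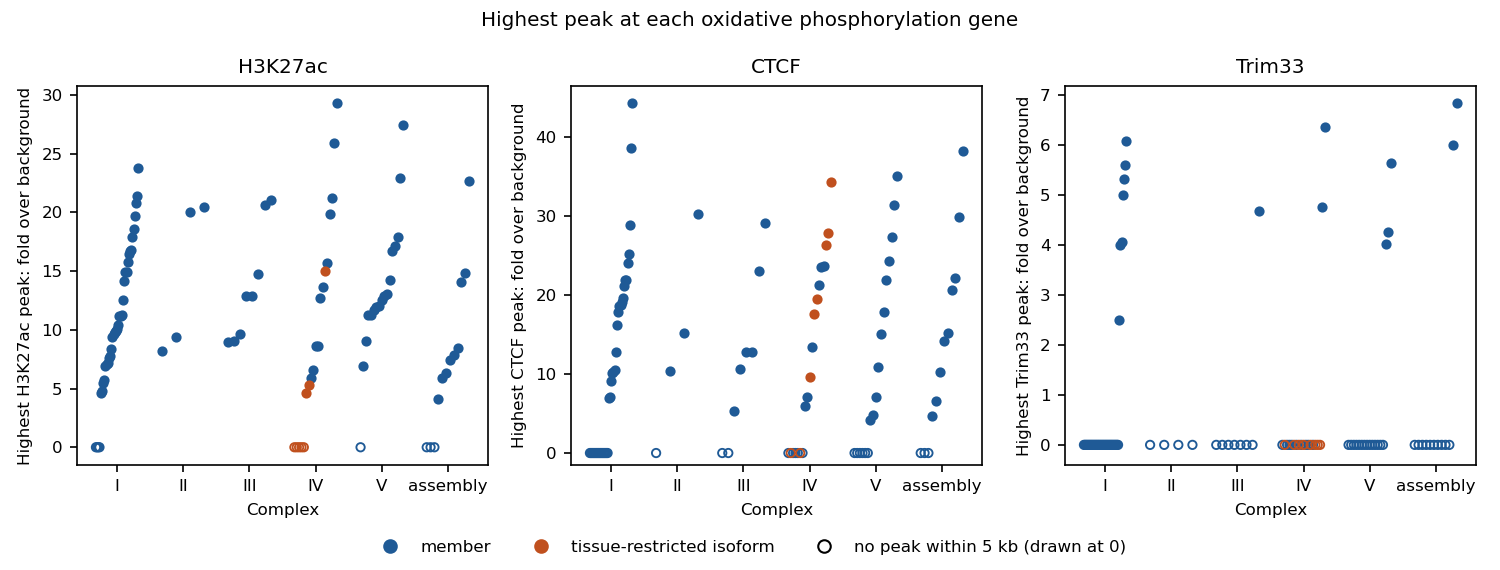
Fold over background of the highest H3K27ac, CTCF and Trim33 peak at each of the 97 genes, by complex; filled points are genes with a peak, open points at 0 are genes without a summit within 5 kb, and orange marks the 8 tissue-restricted isoforms. H3K27ac reached 29.3 at Cox5a in complex IV, where 5 of the 8 isoforms had no H3K27ac peak.

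Beside the counts by complex and for assembly factors below, the shares of all genes were 52.0% for H3K27ac, 62.8% for CTCF and 14.2% for Trim33. Complex I, the NADH dehydrogenase, had H3K27ac at 33 of its 37 genes, with a median highest fold of 11.2. Among nuclear genes for its catalytic core, Ndufs1 had a fold of 19.7. Ndufs3 had a fold of 14.2, and Ndufv2 and Ndufv1, which lie at the NADH end, had 11.3 and 5.77. Ndufs8, an iron-sulfur subunit, had 6.91, and the iron-sulfur subunit gene Ndufs7 had no summit within the window, its nearest being 5.14 kb away with a fold of 6.67. These core genes thus ran from no peak to a fold of 19.7. Their peaks were not all their own: the highest at Ndufs1 lay in Eef1b2, which encodes a translation elongation factor subunit, and the highest at Ndufs8 lay in Tcirg1.

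The highest H3K27ac folds among the accessory subunits of complex I were 23.8 at Ndufb6, 21.4 at Ndufs6 and 20.8 at Ndufa6. At Ndufs6, a zinc-binding subunit, the summit lay 140 bp after the start of the gene itself. At Ndufb6 the summit lay 118 bp from the start of Topors, a ubiquitin and SUMO ligase gene, and the peak at the start of Ndufb6 itself, 251 bp before it, had a fold of 3.94. At Ndufa6 the summit lay 114 bp from the start of Smdt1, which encodes a part of the mitochondrial calcium uniporter. The complex I genes without H3K27ac were Ndufs7, Ndufb5, Ndufb4b and Ndufb4c. Ndufb4, the parent of the last pair by name, had a fold of 15.8, with its summit 308 bp after the start. Reads of near-identical copies can be lost or shared in alignment, and their part in the empty Ndufb4b and Ndufb4c was not tested.

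Complex II, succinate dehydrogenase, had H3K27ac at all 4 of its genes, with folds of 20.5 at Sdha, 20.0 at Sdhd, 9.41 at Sdhc and 8.17 at Sdhb. Sdha encodes the flavoprotein and Sdhb the iron-sulfur subunit, while Sdhc and Sdhd encode the membrane anchors. The summit at Sdha lay 109 bp after its start, whereas that at Sdhd lay 290 bp before it, in Timm8b, a gene for a mitochondrial import chaperone. No complex II gene had Trim33. CTCF was at 3 of the 4, highest at Sdhb with a fold of 30.2, inside the gene and 3519 bp after the start.

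Complex III, the cytochrome bc1 complex, had H3K27ac at all 8 of its genes, with a median of 12.9. The highest folds were 21.1 at Uqcrh, which encodes the hinge protein, and 20.6 at Uqcr10. The summit at Uqcrh lay 1177 bp before its start, in Lrrc41, and that at Uqcr10 lay 105 bp after its own start. Uqcrfs1, the Rieske iron-sulfur protein gene, had a fold of 12.9. The core protein genes Uqcrc2 and Uqcrc1 had folds of 9.67 and 8.97. Uqcrb, a subunit near the quinone-reducing site, was the only complex III gene with Trim33, at a fold of 4.67, and it carried H3K27ac of 14.7 and CTCF of 5.30.

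Complex IV, cytochrome c oxidase, split by isoform. All 11 genes that are not on the list of tissue-restricted isoforms had H3K27ac, with a median fold of 13.6 (range 5.92 to 29.3). Of the 8 tissue-restricted isoforms, 3 had it, and a start was listed for only 4 of the 8. Of those 3, only Cox6b2 had a listed start, and its summit lay 1076 bp after that start. Without these isoforms the whole group had H3K27ac at 81 of 89 genes, 91.0%. The highest fold of all members was 29.3 at Cox5a, with the peak at chr9:57520804-57522487 and its summit 162 bp after the start. Cox4i1, the widely expressed form of subunit 4, followed within the complex at 25.9, with its summit outside the gene and nearest to Emc8, a gene for a membrane protein insertase subunit. Ndufa4 had 21.3 and Cox7c 19.9. Lower folds were found at Cox6a1 (8.60), Cox7a2 (8.60), Cox6b1 (6.60) and Cox5b (5.92).

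The isoform pairs can be set side by side. Cox4i1 had 25.9, although that summit lay 309 bp outside the gene and the peak inside it had 10.8. Cox4i2, the lung form, had 5.27. Cox6a1 had 8.60, although that summit lay in Gatc and the peak at the start of Cox6a1 itself had 7.38, and Cox6a2, the heart and muscle form, had none. Cox7a2 had 8.60, and Cox7a1, the heart and muscle form, had none. Cox8a had 13.6, while Cox8b and Cox8c had none. Cox6b1 had 6.60 and Cox6b2, the testis form, had 15.0, so that this pair ran the other way. The Cox6b2 summit lay inside the gene, 1076 bp after the start and 226 bp from the gene's far end. The Cox6b1 summit lay 123 bp after its start, so the 2 peaks are not at like positions. Ndufa4l2, a form known to be induced by hypoxia, had 4.65, with the summit 4309 bp from the gene in Shmt2, and Cox7b2 had none. CTCF was present at 6 of the 8 isoforms, 75% against 62.8% of all genes, with folds of 34.3 at Cox4i2, 27.8 at Cox6a2, 26.4 at Ndufa4l2, 19.5 at Cox7a1, 17.6 at Cox8b and 9.63 at Cox7b2. Trim33 was at none of the 8, against 14.2% of all genes.

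Complex V, the ATP synthase, had H3K27ac at 16 of its 17 genes, with a median of 12.7. Atp5a1, the alpha subunit of the catalytic head, had the second highest fold of all members, 27.5. Atp5b, which encodes the catalytic beta subunit, had 16.7 at a summit in Baz2a, 2596 bp outside the gene, and 16.5 at a second peak 135 bp after its own start. Atp5j, a subunit of the stalk also called coupling factor 6, had 22.9. Atp5o, the oligomycin-sensitivity subunit gene, had 17.9, Atp5d 17.2 and Atp5c1, the gamma subunit of the rotor, 11.3. The 3 genes for the identical mature subunit c, Atp5g1, Atp5g2 and Atp5g3, had close folds of 11.7, 11.9 and 12.0. Atp5pb, which encodes subunit b, was the gene of this complex without H3K27ac, and its highest CTCF peak had a fold of 7.05.

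The assembly factors stood lower. H3K27ac was at 9 of 12, with a median fold of 7.86, beside 12.6 for the 77 subunit genes left when assembly factors and tissue-restricted isoforms were set aside, of which 72 had a peak. Sdhaf2, which attaches FAD to complex II, was highest at 22.7, with its summit 344 bp from the start of the neighbour Cpsf7. Ndufaf6 had 14.8 and Ndufaf3 had 14.0. Ndufaf1, Ndufaf2 and Sdhaf3 had none within 5 kb. A summit of fold 26.8 lay 8.38 kb from Ndufaf2, and one of 14.0 lay 12.41 kb from Ndufaf1. Ndufaf7 had the lowest H3K27ac of any member with a peak, at 4.15.

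The distance to the nearest H3K27ac summit was 5.14 kb for Ndufs7, just outside the window, and 4.31 kb for Ndufa4l2, just inside it. Beyond Ndufs7 came Cox7a1 at 7.29 kb and Cox8b at 16.82 kb. Cox8c, Ndufb5 and Cox6a2 followed at 21.05, 28.24 and 31.86 kb. For Atp5pb, Cox7b2, Ndufb4b, Ndufb4c and Sdhaf3 no H3K27ac summit lay within 50 kb. For CTCF, Ndufs3 at 4.87 kb was the last inside and Ndufb3 at 7.07 kb the first outside. For Trim33 these were Ndufs8 at 3.38 kb and Atp5d at 5.04 kb.

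Where a transcript start was listed, most of the highest H3K27ac summits lay just after it. A start was available for 79 members, and 64 of them, 81.0% (71.0% to 88.1%), had an H3K27ac summit within 1 kb of it, against 42.9% of genes with a start. Of the 69 members with both a start and an H3K27ac peak, the highest peak lay within 1 kb of the start in 57, 82.6% against 69.2% of all such genes. In 49 of these 57 the summit was on the gene side, 86.0% against 72.4%. The median position of the highest peaks within 1 kb was 166 bp after the start, close to the 158 bp for all genes. For Trim33, 9 of 79 members had a summit within 1 kb of the start, 11.4% (6.11% to 20.3%) against 7.01%.

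**Figure D3:**
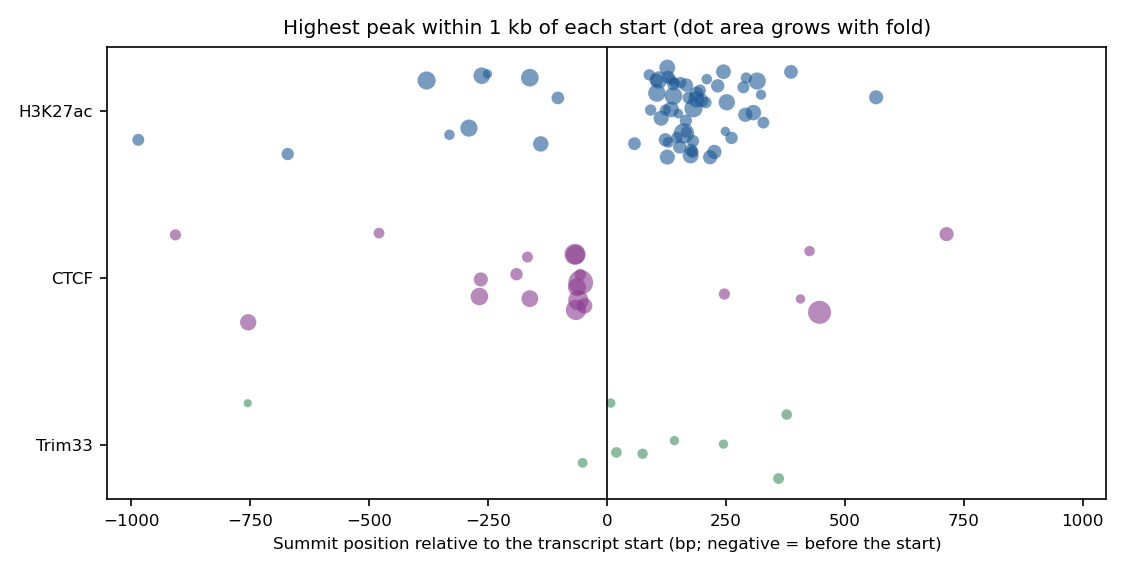
Position in bp of the highest summit within 1 kb of the transcript start at each member, by antibody; each dot is a gene, dot area grows with fold, negative positions lie before the start, and vertical spread has no meaning. Most H3K27ac summits gathered after the start (median 166 bp where the gene's highest peak lay within 1 kb). The CTCF summits of 8 genes lay between 47 and 67 bp before the start.

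CTCF summits at the starts lay on the other side. CTCF was within 1 kb of the start in 21 of 79 members, 26.6% (18.1% to 37.2%) against 22.7%. In 13 members a CTCF peak lay within 250 bp of the start, and in 12 of these 13 the highest such summit was before the start, 92.3% against 58.4% of 1981 genes. In 8 of the 13 it lay in a narrow band from 45 to 70 bp before the start, 61.5% against 9.24%. That band was read from the values themselves, so its edges are a description. In the rounder band of 1 to 100 bp before the start the same count of 8 stood against 30.9%. The 8 genes, whose sequences are printed above, encode subunits of complexes I, III, IV and V and 1 assembly factor.

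Among these 8, Ndufab1, which encodes the mitochondrial acyl carrier protein that is also a complex I subunit, had the highest CTCF peak of all members. Its fold was 44.2, with the summit 55 bp before the start and rank 125 of the 52446 CTCF peaks. Atp5k had a CTCF fold of 31.4 at 67 bp before the start, Uqcrc1 29.1 at 65 bp, and Ndufb7 28.8 at 60 bp. Ndufc1 had 25.2 at 66 bp, Ndufaf4 22.1 at 63 bp and Ndufb10 16.2 at 47 bp. Cox5a, highest for H3K27ac, had the lowest CTCF of the set, 7.58 at 56 bp. All 8 CTCF peaks overlapped an H3K27ac peak by at least 1 bp, beside 11.1% of the CTCF peaks assigned to any gene. None overlapped a Trim33 peak, beside 3.66%, so this was near the background. Both shares cover CTCF peaks anywhere in or near genes, and those of CTCF peaks at starts alone were not computed. AGGGGGC was present in the promoters of 4 of the 8. These were also the only matches among the 13 members with CTCF within 250 bp of the start, 30.8% beside 29.6% of all such genes, so the share was near the background. The centre of the match lay 2 bp from the summit in Atp5k, 15 bp in Ndufaf4, 15 bp in Ndufc1 and 41 bp in Uqcrc1.

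Other CTCF peaks of high fold lay elsewhere. Ndufaf3, an early assembly factor of complex I, had 38.2 at 447 bp after the start. Atp5mpl, a small subunit of the ATP synthase, had 35.1 at 58 bp outside the gene, and Ndufaf6 had 29.8 at 67 bp outside it. Cox4i2 had 34.3 at 1619 bp from the gene. No start was listed for Atp5mpl, Ndufaf6 or Cox4i2, so these could not enter the count of summits before the start. The CTCF peaks at Atp5mpl and Ndufaf6 overlapped an H3K27ac peak whose summit lay inside the gene. CTCF summits inside the gene body were found at 28 members, 28.9% against 47.1% of all genes, and the part of their shorter length in that count was not tested. Of the CTCF peaks of the members, 25.9% of 143 overlapped H3K27ac, beside 11.1% of the CTCF peaks assigned to any gene.

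The 4 highest Trim33 peaks at these genes were Ndufaf4 with a fold of 6.83, Cox7c with 6.35, Ndufa5 with 6.08 and Ndufaf3 with 6.00. Ndufaf4, an assembly factor of complex I, had its summit 1125 bp before the start, and Cox7c, a small subunit of complex IV, had it 361 bp after. In Ndufa5, an accessory subunit of complex I, it lay 20 bp after the start, and in Ndufaf3 378 bp after. Lower folds were found at Atp5g2 with 5.63, Ndufs4 with 5.59 and Ndufb6 with 5.0. Atp5g2 had its summit 1312 bp before the start and Ndufs4, an accessory subunit whose loss is known to cause Leigh-like disease in mice, had it 75 bp after. The summit assigned to Ndufb6 lay 69 bp from the start of Topors.

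Below these came Ndufa4 with 4.75, Uqcrb with 4.67, Atp5j2 with 4.25 and Ndufs8 with 4.06. The Ndufa4 summit lay 51 bp before its start and the Atp5j2 summit 8 bp after. The Ndufs8 summit lay 251 bp from the start of Tcirg1 and 3382 bp from Ndufs8. Atp5b had 4.01, Ndufs6 4.00 and Ndufa13 2.50, the last at rank 4426 of 4426 and inside Tssk6. No Trim33 peak of a member reached a −log10 q of 10, where 2.09% of all genes had one. The Trim33 library had the fewest reads in peaks, 0.72%, and a member without a peak may lie below detection in this library.

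The 15 Trim33 peaks lay mostly on acetylated chromatin. Of them 13, 86.7%, overlapped an H3K27ac peak, beside 51.3% of the 2917 Trim33 peaks assigned to any gene. Overlap with CTCF was found for 4, 26.7% beside 45%, among them the peaks at Ndufaf3, Ndufaf4 and Uqcrb. Where a start was known, 9 of 13 Trim33 summits lay within 1 kb of it, 69.2% against 46.4%, and 7 of these 9 were on the gene side, 77.8% against 48.6%. The H3K27ac folds of the members with Trim33 ran from 6.91 at Ndufs8 to 23.8 at Ndufb6, and covered most of the range of the group. Of the 155 H3K27ac peaks of the members, 13 overlapped Trim33, 8.39% beside 6.22% of those assigned to any gene, so the share was near the background. These 13 had a median fold of 14.7, beside 8.18 for the rest. That difference was not tested, and the same medians over all genes were not computed.

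Many of the members share their start region with a gene on the other strand. Such a start lay within 1 kb of the start of 24 of 79 members, 30.4%, against 13.6% of all genes and 21.0% of acetylated genes. The closest pairs with a named partner were Ndufs3 and Kbtbd4 at 19 bp, Sdhaf2 and Cpsf7 at 35 bp, Sdhd and Timm8b at 52 bp, and Ndufa11 and Vmac at 63 bp. Atp5j lay 148 bp from Gabpa, which encodes the DNA-binding subunit of the GABP activator, so the H3K27ac peak of 22.9 stood at a region shared by both genes. Ndufa7 lay 83 bp from the ribosomal protein gene Rps28, and Ndufb5 lay 308 bp from the mitochondrial ribosomal protein gene Mrpl47, without H3K27ac within 5 kb. H3K27ac within 1 kb of the start was at 20 of the 24 members with a shared start, 83.3%, and at 44 of the other 55, 80.0%. Over all genes the same shares were 74.4% and 37.9%, so the members without a shared start were acetylated nearly as often as those with it.

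A peak near a shared or close start cannot be given to a single gene. The highest H3K27ac peak was nearer to another protein-coding gene for 20 of the 84 members, so 76.2% kept their own peak, beside 77.3% of all genes. Of the 10 highest members, this held for Cox4i1, Ndufb6, Sdhaf2, Ndufa4, Uqcrh and Ndufa6. Cox5a, Atp5a1 and Ndufs6 were nearest to their own highest peak. The Atp5j summit lay inside both Atp5j and Gabpa, and was counted for Atp5j only because an end of that gene was nearer.

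**Figure D4:**
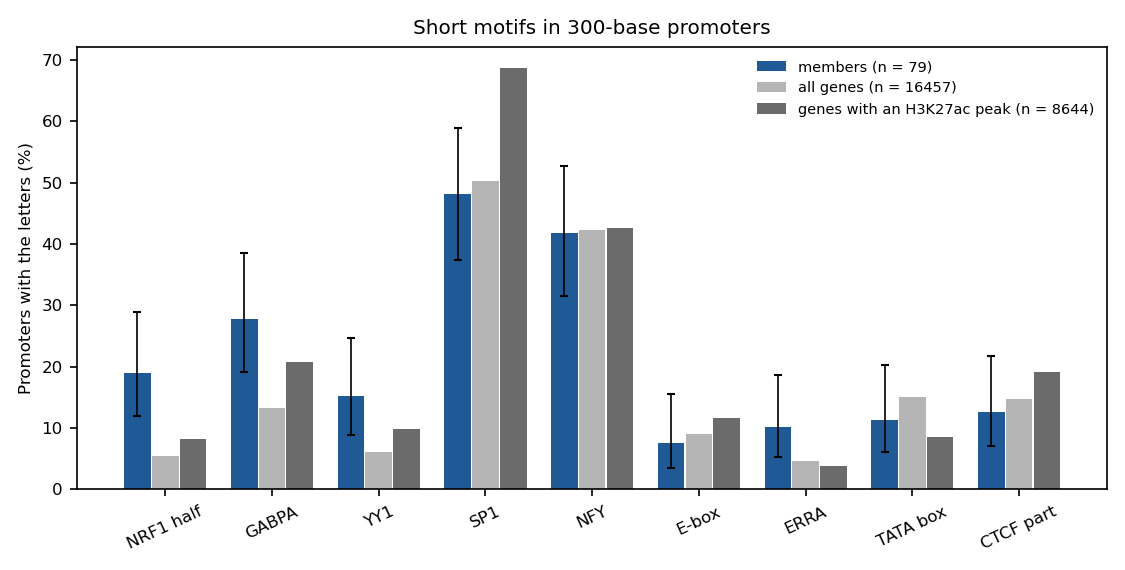
Share (%) of 300-base RefSeq promoters that hold each short motif on either strand, for the 79 members with a listed start, all 16457 genes with a start, and the 8644 of these with an H3K27ac peak; bars on the member columns are 95% Wilson intervals. The part of the NRF1 site was in 19% of member promoters, beside 5.46% and 8.29%.

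Letters of 4 activator motifs were found in larger shares of the member promoters than of all promoters, and none of these differences was tested. Each promoter ran from 250 bases before to 50 after the start, and both strands were searched. GCGCATG, a part of the NRF1 site, was in 15 of 79 members, 19% (95% Wilson interval 11.9% to 29%), beside 5.46% of all 16457 genes with a start and 8.29% of acetylated ones. CCGGAAG of GABPA was in 22, 27.8% (19.2% to 38.6%), beside 13.3% and 20.8%, so the interval held the acetylated share. ATGGCGG of YY1 was in 12, 15.2% (8.91% to 24.7%), beside 6.14% and 9.81%, and here too the interval held the acetylated share. AAGGTCA of the oestrogen-related receptor ERRA was in 8, 10.1% (5.22% to 18.7%), beside 4.69% and 3.84%. NRF1 and GABPA letters occurred together in Atp5k, Atp5l, Cox6a1, Ndufb6, Sdhb and Uqcr11, which made 7.59% beside 1.14% of all genes. The share of acetylated genes with both was not computed. Each motif alone was also in a larger share of the members, and whether the pair exceeds that was not tested. A match is a string of letters and not a measured site, and overlaps between GGGCGG and other motifs were not removed.

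The other motifs were found in shares at or below that of all genes. GGGCGG of SP1 was in 38 members, 48.1%, beside 50.3% of all genes and 68.7% of acetylated ones. CCAAT of NFY was in 33, 41.8%, beside 42.3% and 42.7%. The E-box CACGTG was in 6, 7.59%, beside 9.01% and 11.7%, and TATAAA in 9, 11.4%, beside 15.0% and 8.47%. AGGGGGC of CTCF was in 10, 12.7%, beside 14.8% and 19.1%. The median ratio of observed to expected CpG was 0.833, beside 0.598 for all and 0.775 for acetylated genes, with a median GC content of 58.7% beside 56.7% and 61.0%.

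Other metabolic and housekeeping genes give the context. Over all genes H3K27ac was at 52.0% and Trim33 at 14.2%. Peaks were given by the same rule, so a summit may lie up to 5 kb outside the named gene. The H3K27ac summits at Ecsit and Idh3b lay 235 and 4684 bp outside the gene. The Trim33 summits at Ttc19 and Idh3b lay 3189 and 4530 bp outside. Of 35 further respiratory chain and assembly genes, 32 had H3K27ac, with a median of 10.3, led by Cox20 (21.8), Ecsit (21.1), Higd1a (21.0) and Atpaf2 (18.9). Cytochrome c itself, Cycs, and its testis form Cyct were among the 3 without it, with Etfdh. Trim33 was at 4 of them, Ttc19 (8.01), Etfa (6.84), Cox10 (6.83) and Uqcc2 (3.50). All 15 TCA cycle genes had H3K27ac, with a median of 11.2, led by Suclg2 (19.7), Mdh2 (17.4), Idh2 (16.6) and Idh3b (15.3). Trim33 was at Mdh2 (8.84), Idh3b (5.33) and Dlat (4.94). The 16 glycolysis genes all had it too, with a median of 16.7, led by Pkm (40.6), Gapdh (36.2), Eno3 (28.7) and Aldoa (28), and Trim33 was at Pkm (6.30), Gpi1 (5.55) and Gapdh (5.26).

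Of 14 regulators of respiratory genes, 11 had H3K27ac, with a median of 17.4. The coactivator gene Pprc1 had 32.6, Gabpb1 28.6, Yy1 26.3 and Nrf1 25, and Trim33 was at Ppargc1a (6.43), Pprc1 (4.93) and Ppargc1b (4.00). Of 87 genes named as cytosolic ribosomal proteins, 78, 89.7%, had H3K27ac, with a median of 18.7, led by Rpl19 (41.0), Rps19 (35.2), Rpsa (31.8) and Rpl32 (31.4). Trim33 was at 28 of these, 32.2%, with folds from 3.8 to 8.44, beside the 15.5% of oxidative phosphorylation genes. Of 39 proteasome genes, 35 had H3K27ac, with a median of 12.0, led by Psmb3 (32), Psma3 (23.0), Psmc2 (19.2) and Psmd12 (18.5), and 8, 20.5%, had Trim33, with folds from 4.58 to 7.64. The H3K27ac summit at Psmb3 lay 3184 bp outside the gene, and the Trim33 summit at Pprc1 2958 bp outside. None of the differences between lists was tested.

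Reads numbered 29719237 to 43900248 per library, and 13643929 tags were used for Trim33, 33090822 for CTCF and 29995044 for H3K27ac, per the authors' deposited summary. Duplicates made up 40.9% of the Trim33 reads and 6.36% to 12.2% of the others. Of 17 markers of embryonic lineages, 10 had H3K27ac, 58.8% against 52.0% of all genes. Of the pluripotency genes, Sox2 had 20.3, Nanog 17.4 and Pou5f1 13.3, and the endoderm and heart gene Gata4 had 11.2. The H3K27ac summits at Sox2 and Nanog lay 606 and 998 bp outside the gene. The Trim33 summits named next lay 3715 bp outside Sox1, 1850 bp outside Foxa2 and 3605 bp outside Eomes. Trim33 was at 8 of the 17, 47.1% against 14.2%, among them Sox1 (9.33), Foxa2 (8.67) and Eomes (8.00), while T, Mixl1, Hand1, Nkx2-5, Kdr, Tal1 and Afp had no H3K27ac. As embryoid bodies hold several cell types, a stronger mark per cell and more cells with the mark cannot be told apart.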

How the data were processed

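Peak lists for Trim33, CTCF and H3K27ac were deposited by the authors, 1 library each, called separately per antibody against 1 input library. SICER 1.1, MACS, MACS2 and BWA 0.7.12 are named, without roles, in the submitters' processing notes, and the authors' deposited summary names MACS 2.1.0. For every peak the deposited columns used are the summit, the fold over background (a ratio), the −log10 p-value and the −log10 q-value, as computed by the authors. The lowest −log10 p deposited was 5.06 for Trim33 and 7.03 for the others, so the lists have different thresholds, and fold was compared only within a list. The authors used 13643929 input tags for Trim33 and 25729171 for the others. The deposited lists hold 4426, 52446 and 30047 peaks, equal to the filtered counts in the authors' summary.

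Positions came from RefSeq GRCm38.p6, and starts and strand from its promoter table, which lists 79 of the 97 genes. Shares have 95% Wilson intervals, and nothing was tested because each antibody had 1 library. Members and lists were chosen with earlier results of these data known. The named genes are the 10 highest for H3K27ac, the 10 highest for CTCF, all with Trim33, all without H3K27ac, the tissue-restricted isoforms, those next to the median, and the highest 4 and those with Trim33 of each other list (for the ribosomal, proteasome and embryonic lists, the range or some of the latter). Catalytic subunits, isoform partners, genes with shared starts and the 8 genes with CTCF before the start were added after their values were seen. Values of 1 gene that the rule names are not reported here. The ribosomal list was made by symbol pattern and includes relatives such as Rps19bp1. Gene assignment was tested on planted peaks. The tools were pandas 2.3.3, numpy 2.4.6, matplotlib 3.10.9 and scipy 1.17.1 under Python 3.11.15.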

Additional observations from a re-analysis of the deposited data

How the results depend on the processing

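The H3K27ac share kept within 1.5 times its value of 86.6% in all 12 alternatives, from 75.3% to 91.0%, and stood above the background share in each. The CTCF share ranged from 26.6% (background 22.7%) to 72.2% (background 69.9%). Only the count within 1 kb of a start, 26.6%, moved by over 1.5 times. That count also left out summits elsewhere in the gene and the genes without a listed start, and the cause was not tested. The Trim33 share was 4.12% for peaks above the median fold of their list (background 6.86%) and 0.0% at a −log10 q of at least 10 (background 2.09%), and lay from 11.3% to 20.6% otherwise. The median percentile of the highest peak ran from 81.9 to 86.9 for H3K27ac, 79.1 to 84.4 for CTCF and 23.8 to 40.8 for Trim33 in the 5 alternatives, within the 95% order-statistic intervals of the medians (77.0 to 89.5, 66.4 to 87.1 and 7.22 to 57.2). With acetylated genes as background, the share was 22.0% for Trim33 and, by construction, 100% for H3K27ac. The narrower reading of the choice left 68 genes, of which 83.8% had H3K27ac, against 52.0% of all genes. No paired analysis was possible because each antibody had 1 library, and leaving out a replicate could not be done for the same reason. The Trim33 library had 0.72% of reads in peaks and 40.9% duplicates, and depth, enrichment and the looser threshold of its list cannot be told apart.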
